A study of Mus musculus with 38 samples.

Results

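The 10 genes described here belong to the Notch pathway and were taken by symbol from the RNA and chromatin tables: the ligand genes Dll1, Dll3 and Jag1, the receptor genes Notch1 and Notch2, the Fringe genes Lfng and Mfng, the transcription factor gene Rbpj, and the target genes Hes1 and Hes5. All 10 of 10 were found among the 25965 genes of the RNA table, and each has at least 1 promoter window in the chromatin table. The cells were neural stem/progenitor cells (NSPCs) from the subventricular zone, a layer lining the lateral ventricles of the brain, of male mice, grown as free-floating neurospheres. Young adult NSPCs came from mice of 3 months and aged NSPCs from mice of 18 months. For the strain C57BL/6JBabr there were 3 derivations per age with RNA, bisulfite (BS), oxidative bisulfite (oxBS) and chromatin immunoprecipitation (ChIP) libraries for H3K4me3, H3K27me3 and Input. For the strain C57BL/10, kept in another facility, there was 1 RNA library per age. Every group was expanded in culture in the same growth factors (EGF and FGF), no group carried a transgene or received a drug, and each derivation pooled several mice, so the libraries describe cultured cells and not the tissue itself.

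Notch receptors are activated by membrane-bound ligands on a neighbouring cell. After cleavage, the receptor's intracellular domain enters the nucleus and joins Rbpj, which binds DNA at target genes such as Hes1 and Hes5. The Hes proteins repress proneural genes, and the Fringe enzymes add sugars to the receptor and so change which ligands it responds to. In the adult subventricular zone this signalling is known for keeping neural stem cells undifferentiated.

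RNA values were log2 RPM, which is a gene's reads divided by all reads of its library on a log2 scale, over libraries of 16952486 to 41053972 reads. The summed level of 8 NSPC markers lay between 6284 and 8125 RPM in the 6 C57BL/6JBabr libraries, that of 7 astrocyte markers between 1829 and 2400 RPM, that of 8 oligodendrocyte lineage markers between 1169 and 1405 RPM, that of the 3 ependymal markers in the table between 31.5 and 103 RPM, and those of neuronal, endothelial, pericyte and microglial markers at no more than 13.3 RPM. In all 8 marker lists the ranges of the 3 young and 3 aged libraries overlapped. The astrocyte sums overlapped narrowly, at 2026 to 2400 RPM in young and 1829 to 2043 RPM in aged libraries. None of the listed genes tested passed between ages in limma without pairing of libraries. Neither did any of all 14858 genes tested, so the lack of calls does not show that cell makeup was alike. Some markers were absent or too low for testing. Astrocyte log2 differences were -0.54 for Gfap, -0.44 for Aldoc, -0.27 for Aldh1l1 and -0.20 for Slc1a3. They were -0.14 for Aqp4, -0.0079 for Slc1a2 and 0.39 for S100b. Unadjusted p-values in limma were 0.012 for Gfap and 0.049 for Aldoc. In the young and the aged C57BL/10 library the sums were 9180 and 7787 RPM for NSPC, 2523 and 1838 RPM for astrocyte and 1351 and 1644 RPM for oligodendrocyte lineage markers. Whether differences in cell makeup play a part in any value below was not tested, and in such bulk samples fewer cells of a type and less RNA per cell cannot be told apart. The derivations of an age are separate samples, so p-values measure the spread between derivations. Where same-numbered young and aged libraries were taken as pairs (a replicate block), p-values measure the spread left after pairing.

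To compare levels between genes, the RPM values were divided by the exon length in kilobases (log2 RPKM, a level). Hes5, a target gene that encodes a repressor of differentiation, had the highest mean level over the 6 C57BL/6JBabr libraries, 6.64 ± 0.55 (SD, n = 6). The Fringe gene Lfng followed at 6.58 ± 0.22 and the target gene Hes1 at 6.35 ± 0.29, and the ranges of these 3 genes overlapped with each other in that order. Hes5 was above Lfng in only 2 of the 6 libraries. Notch1, the most abundant receptor gene of the pair, stood at 5.20 ± 0.04, apart from the genes above and below it in every library. Jag1 (3.40 ± 0.18), Rbpj (3.26 ± 0.12), Notch2 (2.83 ± 0.27) and Dll1 (2.35 ± 0.30) came next, each overlapping the next of these 4, and Dll1 lay apart from Mfng below it. Mfng (0.04 ± 0.28) and Dll3 (-0.47 ± 0.26) were close to the bottom, with 35 to 102 and 30 to 96 reads in these 6 libraries, so their values carry more counting error than those of the other 8 genes. In the C57BL/10 libraries the order differed at the top, with Hes5 in place 5 of 10 in the young library and place 4 in the aged one.

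Promoter sequences from RefSeq (GRCm38.p6) were matched by symbol for 8 of the 10 genes; Hes1 and Mfng had no entry. Those of Hes5 and Lfng, the genes at the top of the order, are shown because they hold the core sequence GTGGGAA, the motif that Rbpj is known to bind. The sequences are the 250 bases before the transcription start site (TSS), on the gene's own strand, 5′ to 3′, and the capitals mark matches of GTGGGAA or, on the opposite strand, TTCCCAC. The Hes5 sequence lies at chr4:154960673-154960922 on the plus strand and the Lfng sequence at chr5:140607091-140607340 on the plus strand.
Hes5: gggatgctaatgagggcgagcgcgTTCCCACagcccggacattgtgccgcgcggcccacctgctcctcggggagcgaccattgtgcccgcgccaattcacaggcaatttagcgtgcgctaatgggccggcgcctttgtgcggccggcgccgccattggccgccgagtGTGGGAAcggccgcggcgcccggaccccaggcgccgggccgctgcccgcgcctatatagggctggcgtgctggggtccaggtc
Lfng: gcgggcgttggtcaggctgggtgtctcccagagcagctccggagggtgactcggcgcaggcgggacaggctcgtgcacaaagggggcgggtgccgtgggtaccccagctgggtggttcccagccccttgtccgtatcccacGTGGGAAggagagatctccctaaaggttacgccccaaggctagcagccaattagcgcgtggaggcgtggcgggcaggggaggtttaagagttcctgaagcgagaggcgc
The Hes5 sequence held 2 matches, at -226 to -220 on the minus strand and -83 to -77 on the plus strand relative to the TSS, and the Lfng sequence held 1, at -109 to -103. GTGGGAA occurred on either strand in 5.42% of 32851 RefSeq promoters of that length, and none of the other 6 matched sequences held it. The match is a description of letters and not of binding, which was not measured here.

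Dll1 and Dll3, which had the largest RNA differences between ages among the 10 genes, are shown for their CpG content, since methylation is measured at CpG sites. The Dll1 sequence lies at chr17:15375824-15376073 and the Dll3 sequence at chr7:28301786-28302035, both on the minus strand, and capitals mark each CG. Both end at RefSeq start sites, 15375823 and 28301785, that differ from the TSS on which the ChIP and methylation windows below are centred. Relative to that TSS, the Dll3 sequence lies downstream and the Dll1 sequence spans it.
Dll1: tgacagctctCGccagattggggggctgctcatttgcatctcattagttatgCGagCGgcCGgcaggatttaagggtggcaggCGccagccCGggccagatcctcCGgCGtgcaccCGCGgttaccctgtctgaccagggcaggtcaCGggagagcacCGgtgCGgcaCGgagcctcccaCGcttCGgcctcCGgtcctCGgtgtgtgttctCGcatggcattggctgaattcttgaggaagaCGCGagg
Dll3: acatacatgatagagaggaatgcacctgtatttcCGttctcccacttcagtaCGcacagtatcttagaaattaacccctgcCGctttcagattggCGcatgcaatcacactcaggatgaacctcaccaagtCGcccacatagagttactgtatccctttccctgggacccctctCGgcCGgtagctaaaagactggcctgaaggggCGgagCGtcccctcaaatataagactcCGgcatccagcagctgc
Dll1 had 21 CG and Dll3 had 10 in these 250 bases, against a median of 6 in all RefSeq promoters. The other matched genes had 34 (Notch2), 32 (Hes5), 21 (Rbpj), 20 (Jag1), 18 (Lfng) and 16 (Notch1), so all 8 were above that median.

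The first comparison asked whether the RNA of these genes differs between aged and young NSPCs of C57BL/6JBabr. No gene of the 10 passed the test (limma on log2 RPM, 3 against 3, adjusted p under 0.05), and neither did any of the 14858 genes tested, a share of 0.0%. At an unadjusted p under 0.05 there were 258 genes, 1 of the 10 among them, and edgeR passed 0 genes. With the replicate numbers, which were taken to pair the libraries, as a block, 74 genes (0.498%) passed and again none of the 10 did. The difference was above 0 for 9 of the 10 genes, although that of Notch2, Hes1, Hes5, Rbpj, Lfng and Mfng changed sign in at least 1 of the 6 fits that left out 1 library, in which 6 to 8 of the 10 were above 0. The median difference of the 10 was 0.06 on the log2 scale, beside 0.00 for all genes tested, and it ran from 0.024 without aged replicate 1 to 0.19 without aged replicate 3.

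Dll1, the Delta-like ligand gene that activates receptors on neighbouring cells, had the largest difference among the 10. Its levels were 3.83, 4.19 and 3.92 log2 RPM in young replicates 1, 2 and 3 and 4.33, 4.67 and 4.21 in aged replicates 1, 2 and 3. The 3 aged libraries were all above the 3 young ones, as was the case in that direction for 3.14% of all genes tested. The difference was 0.42 ± 0.15 (log2 fold change ± SE), a 1.34-fold higher mean, with an unadjusted p of 0.023 in limma. It was higher in 3 of 3 pairs with the same replicate number, by 0.50, 0.48 and 0.29, and with the replicate block the adjusted p was 0.0575 in limma and 0.0513 in edgeR's quasi-likelihood test. The study's own limma test on these same libraries called genes at an adjusted p under 0.05, and its tables list Dll1. In limma without the block, no gene passed here. Because the libraries are the same, the value of Dll1 is not independent evidence. Its exons overlap those of the antisense gene A930024N18Rik, and reads of the pair cannot be told apart here because no source used here gives the strand setting of the counting.

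Dll3, a ligand gene whose protein is known to act inside the signal-sending cell and to inhibit Notch, was the other gene whose age ranges did not overlap. It was at 0.57, 0.82 and 0.79 log2 RPM in the young and 1.14, 0.88 and 1.28 in the aged libraries. Those levels correspond to 30 to 61 reads in the young and 51 to 96 in the aged libraries. The difference of 0.37 ± 0.21 had an adjusted p of 1.00 in limma without the block and 0.668 with it.

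Jag1, the ligand gene of the Jagged family, was the only member of the 10 with a lower mean in aged NSPCs. It was at 6.16, 5.79 and 6.03 log2 RPM in young and at 5.71, 5.73 and 5.92 in aged replicates, and the ranges overlapped. The difference was -0.21 ± 0.11, below 0 in 3 of 3 pairs, and its adjusted p with the replicate block was 0.506. Without young replicate 1 the difference was -0.13, and over the 6 fits that left out 1 library it ran from -0.31 to -0.13. The difference between Dll1 and Jag1 within a library (log2 of their RPM ratio) was -2.33, -1.60 and -2.11 in young replicates. In aged replicates it was -1.38, -1.06 and -1.71, and the ranges overlapped. Each aged value was above its young partner, which follows from the pair differences of the 2 genes and adds no evidence.

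The receptor genes were close between ages. Notch1, whose exons overlap 2 antisense genes, was at 8.43 ± 0.03 log2 RPM in young and 8.46 ± 0.04 in aged NSPCs (SD, n = 3), the smallest spread of the 10 in the young libraries. Notch2 was at 6.19 ± 0.24 and 6.26 ± 0.35, with the second replicate the highest in either age. Its exons overlap those of Gm42820, a gene model on the same strand, so the counted reads of the pair may have been split.

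Of the genes that act around and after the receptor, Lfng was at 7.75 ± 0.24 in young and 7.81 ± 0.25 in aged NSPCs, Mfng at 0.87 ± 0.29 and 1.00 ± 0.31, and Rbpj at 6.04 ± 0.18 and 6.07 ± 0.05 log2 RPM (SD, n = 3). The target gene Hes1 was at 6.84 ± 0.28 and 6.97 ± 0.35. Hes5 was at 7.64, 6.58 and 6.71 log2 RPM in young replicates 1, 2 and 3 and at 7.76, 6.61 and 6.65 in aged replicates 1, 2 and 3. Hes5 thus varied more between replicate numbers than between ages. The 3 pair differences for Hes5 were 0.12, 0.03 and -0.07.

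**Figure D1:**
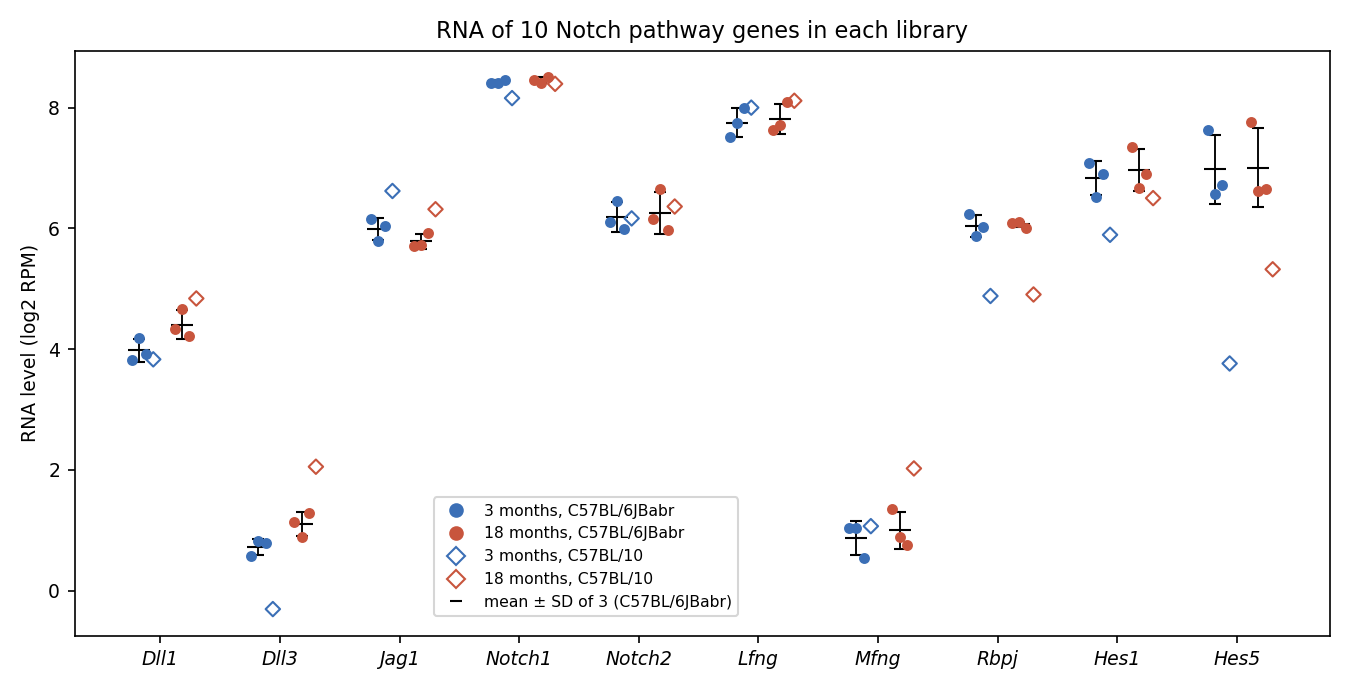
RNA level (log2 RPM) of the 10 genes in each library, with filled circles for the 3 young (blue) and 3 aged (red) C57BL/6JBabr libraries, black bars for their mean ± SD, and open diamonds for the single C57BL/10 library of each age. For Dll1 and Dll3 the aged circles lie above the young ones, and for Hes5 the C57BL/10 diamonds at 3.76 and 5.32 lie below all 6 circles.

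Among 56 other Notch pathway genes in 6 lists, 46 were abundant enough to be tested and none passed between ages in limma, with or without the block. In 5 of the lists, 12 of 17 genes for ligand and receptor processing, 8 of 9 nuclear partners of Rbpj, 4 of 10 inhibitors, 3 of 5 other receptors and ligands and 2 of 4 targets had a difference above 0, beside 50.6% of all genes tested. Leaving out 1 library moved these counts to 8 to 14, 6 to 9, 4 to 7, 3 to 4 and 0 to 4. The largest were those of Dll4 (-0.68 ± 0.51), a Delta-like ligand gene, Jag2 (0.56 ± 0.40), a Jagged ligand gene, Dlk1 (-0.51 ± 1.07), a non-canonical ligand gene, Neurl1b (0.36 ± 0.18), a ubiquitin ligase gene for ligand uptake, and Maml3 (0.24 ± 0.25), a coactivator gene. When 1 library was left out, these ran from -1.12 (without aged replicate 1) to -0.16 (without young replicate 1) for Dll4 and from 0.36 (without young replicate 3) to 0.89 (without young replicate 1) for Jag2. That of Neurl1b ran from 0.18 without young replicate 3 to 0.49 without young replicate 1. The sign turned for Dlk1 (0.33 without young replicate 3 and 0.54 without aged replicate 1, and as low as -1.43 without aged replicate 3) and for Maml3 (-0.0096 without young replicate 1, and up to 0.39 without young replicate 3). Jag2 and Dlk1 rested on few reads, 5 to 25 and 2 to 30 in the 6 C57BL/6JBabr libraries. Dll4 was lower in 3 of 3 pairs. With the replicate block its adjusted p was 0.0526 in limma and 0.0359 in edgeR, where 0.559% of genes passed, and the study's tables single it out as well.

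The C57BL/10 libraries allowed the same question in another strain, with 1 library per age and therefore no test. Of the 10 genes, 5 were past 1.5-fold and all 5 were higher in the aged library, where 10.1% of 14828 genes were past 1.5-fold and 5.06% were higher. Dll3 went from -0.31 to 2.05 log2 RPM (22 and 102 reads), Hes5 from 3.76 to 5.32, Dll1 from 3.83 to 4.84, Mfng from 1.07 to 2.02 and Hes1 from 5.89 to 6.50. As linear folds of the aged over the young library these were 5.13 for Dll3, 2.95 for Hes5, 2.01 for Dll1, 1.94 for Mfng and 1.52 for Hes1. Jag1 went from 6.62 to 6.32, the only gene of the 10 that was lower. Notch1, Notch2, Lfng and Rbpj differed by 0.24, 0.20, 0.11 and 0.02. In all, 9 of 10 genes were higher in the aged library, beside 47.7% of all genes.

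Whether the age difference itself differed between strains was tested with an interaction term, in which the residual spread comes from the C57BL/6JBabr libraries alone. Without a block, 1 gene of 14828 passed (0.00674%) and none of the 10 did. With the replicate block 36 genes passed (0.243%), of which Hes5 was 1. That fit takes the single young and the single aged C57BL/10 library as a matched pair, which the labels do not give and no value here can test, so its p-values hold only under that assumption. The age difference of Hes5 was 1.53 larger in C57BL/10 on the log2 scale, with an adjusted p of 0.000553 with the block and of 1.00 without it (SE 0.13 and 0.72). That of Dll3 was 1.98 larger with an adjusted p of 0.0699 with the block. Those of Mfng, Dll1 and Hes1 were 0.83, 0.59 and 0.47 larger, with adjusted p-values of 0.744, 0.333 and 0.348 with the block. The exons of Hes5 overlap those of the antisense gene Gm20421, and the counted reads of the pair cannot be told apart here.

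**Figure D2:**
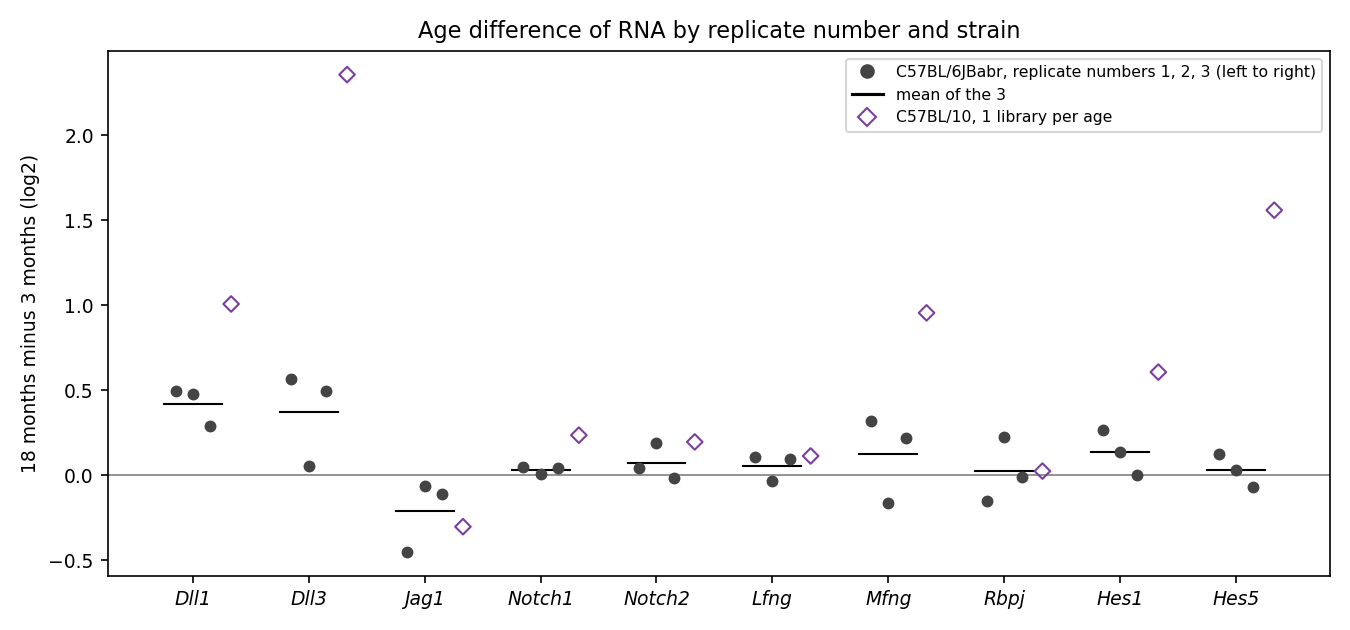
Difference of RNA level between 18 and 3 months (log2) for the 10 genes, with filled circles for the C57BL/6JBabr libraries of replicate numbers 1, 2 and 3 from left to right, a line for their mean, and an open diamond for the C57BL/10 libraries. Dll1 circles lie at 0.50, 0.48 and 0.29, and the C57BL/10 diamonds of Dll3 and Hes5 lie at 2.36 and 1.56, above their circles.

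Taking both ages together, the 2 C57BL/10 libraries were compared with the 6 C57BL/6JBabr libraries, with age as a second term. No replicate block was used, so the 6 C57BL/6JBabr libraries were taken as independent, although between ages same-numbered ones were taken as pairs. The SEs and adjusted p-values between strains may therefore be too small. Strain, facility and library preparation cannot be told apart in this comparison. In limma 4405 of 14828 genes passed (29.7%, with 18.2% higher and 11.5% lower in C57BL/10), and the median of all genes was shifted by 0.17. In edgeR, which rescales the libraries, 2572 passed (17.3%, with 4.25% higher and 13.1% lower). Of the 10 genes, 4 passed in limma, and the same 4 passed in edgeR in the same direction. With quantile normalization Mfng passed as well, higher by 0.85 (adjusted p 0.04996), against 0.61 without it (adjusted p 0.110). Over the 8 fits that left out 1 library the Mfng difference ran from 0.19 to 1.03.

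Hes5 was lower in C57BL/10 by 2.45 ± 0.42 on the log2 scale (adjusted p 0.00248 in limma), a 5.46-fold difference. The C57BL/10 levels of 3.76 and 5.32 log2 RPM lay below all 6 C57BL/6JBabr levels, the lowest of which was 6.58. Rbpj, at 4.88 and 4.91 in C57BL/10 and 5.87 to 6.24 in C57BL/6JBabr, was lower by 1.16 ± 0.10 (adjusted p 1.12e-05). A stretch on chromosome 6 (chr6:46526937-46530791, GRCm38) that carries the annotated copy Rbpj-ps3 covers 70.3% of the Rbpj transcript at 98.7% matching bases, so reads may have been split between them and the Rbpj level is uncertain. Hes1 was lower by 0.71 ± 0.20 (adjusted p 0.0269), and Jag1 was higher by 0.58 ± 0.11 (adjusted p 0.00357). With 1 library left out, the Hes1 difference ran from -0.94 to -0.47.

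These 4 genes had ranges that did not overlap between strains, as did Notch1 and 44.6% of all genes. Notch1 was lower by 0.17 in limma without passing (adjusted p 0.147) and lower by 0.34 in edgeR, where it passed (adjusted p 0.0205). Its limma difference was -0.064 without the young and -0.27 without the aged C57BL/10 library. At each age alone, with 3 libraries against 1 and no spread of C57BL/10, Hes5 was lower by 3.21 in young and by 1.68 in aged NSPCs, and Rbpj was lower by 1.16 at both ages, which is given with no test. Without the young C57BL/10 library, Hes5, Hes1 and Jag1 lost their calls (adjusted p 0.0883, 0.349 and 0.0891), and without the aged C57BL/10 library Hes1 lost its call (adjusted p 0.0637). In those fits the lone C57BL/10 library was assumed to vary like the others.

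Of the 46 other pathway genes tested between strains, 21 passed in limma, 14 higher and 7 lower, beside 29.7% of all genes. In edgeR 7 passed, all lower, beside 17.3% of all genes. In limma 4 passed without the young C57BL/10 library, 8 without the aged C57BL/10 library, 13 without aged C57BL/6JBabr replicate 2 and 14 with quantile normalization. The processing genes held most of them, with 15 of 17 passing in limma and 6 in edgeR. Aph1a and Psenen, which encode subunits of the gamma-secretase that releases the receptor's intracellular domain, were lower by 2.75 ± 0.08 and 2.39 ± 0.12. Both have near-identical stretches elsewhere in the genome, covering 70.9% of the Aph1a and 88.4% of the Psenen transcript at 99.6% and 97.6% matching bases, so reads counted for them are uncertain too. Nrarp, an inhibitor that is itself a Notch target, was lower by 1.05 ± 0.33 (adjusted p 0.0402 in limma). It lost its call without the young C57BL/10 library (adjusted p 0.377), without the aged one (adjusted p 0.109), with quantile normalization (adjusted p 0.0892) and without young replicate 2 or aged replicate 1 or 2 of C57BL/6JBabr (adjusted p 0.0708, 0.0514 and 0.0629). The receptor gene Notch3 was higher by 0.44 ± 0.07 in limma (adjusted p 0.00206) and did not pass in edgeR (adjusted p 0.051) or, in limma, without the young C57BL/10 library (adjusted p 0.0649).

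As a description of pattern, the genes most like Dll1 over the 8 libraries were Ispd, Otud7a and Cherp (Pearson r of 0.98, 0.97 and 0.95), among 14828 genes. Those most like Hes1 were Id3, Fam100a and Polh (0.99, 0.98 and 0.97). For Hes5 they were Gm20421, the overlapping antisense gene, at 1.00, and AC122406.1 and Arhgap19 at 0.99 and 0.99. The 8 points came from 2 strains kept in different facilities, and over the 6 C57BL/6JBabr libraries the value of Id3 with Hes1 was 0.97.

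H3K4me3 marks active or poised promoters and H3K27me3 marks genes held silent by Polycomb. The ChIP values are log2 RPM in windows of 5000 bases centred on a TSS, deposited as 1 value per age, so they carry no error and no test. At the chosen window of each gene, H3K4me3 was at 4.89 log2 RPM or more in both ages for 8 of the 10 genes. It went from 6.90 in young to 7.04 in aged NSPCs at Notch1, from 6.97 to 7.12 at Jag1, from 6.64 to 6.93 at Lfng, from 6.60 to 6.87 at Dll1, from 6.50 to 6.71 at Hes1, from 6.34 to 6.60 at Rbpj, from 5.67 to 5.72 at Notch2 and from 4.89 to 5.23 at Hes5. Dll3, at 2.97 and 3.37, was lower, and Mfng, at 0.36 and 1.08, was below its Input of 1.65 and 1.47. The genes with the lowest RNA levels per length, Dll3 and Mfng, thus also had the lowest H3K4me3 of the 10. All 10 values were higher in aged NSPCs, where the median shift of all windows above a level of 1 was 0.21. With Input subtracted, Notch1 went from 5.90 to 5.70 and Notch2 from 4.84 to 4.59, so those 2 turned and the other 8 were higher.

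Calling a window changed when it was past 1.5-fold with a level above 1 in an age gave 58 of 25888 genes for H3K4me3 (0.224%, of which 0.0618% were higher), and 1 of the 10, Mfng. The Mfng call rested on a level near the minimum and did not remain when a 2-fold change was asked for. With Input subtracted its difference was 0.90, from -1.29 to -0.39, and the call ended because both levels were then under the minimum of 1. Among all 37 windows of the 10 genes, alternative windows of Dll1 (3.43 to 4.04) and Mfng (0.69 to 1.45) passed as well, beside 0.204% of all 72923 windows (0.048% higher). The Dll1 window concerned lies at chr17:15369331-15374331, downstream of the TSS with the high mark.

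H3K27me3 in young NSPCs lay between percentile 9.38 of all genes (Notch1) and percentile 79.5 (Hes5), and it was above its Input in both ages at Notch2 and Hes5 alone. Hes5 had 1.78 in young and 1.52 in aged NSPCs, Lfng 1.07 and 1.12, Hes1 0.96 and 0.54, Dll3 0.91 and 0.74, Mfng 0.47 and 0.42, Jag1 0.47 and 0.59, Dll1 0.07 and -0.26, Rbpj -0.68 and -0.95 and Notch1 -0.98 and -0.50 log2 RPM. Notch2 went from 1.20 to 2.01, a 1.75-fold higher value, and was the 1 gene of the 10 past the rule, beside 1.61% of 25888 genes (0.749% higher). Its Input went from 0.83 to 1.13. With Input subtracted, Notch2 was at 0.37 and 0.87, both under the minimum of 1, and the call did not remain. At 2-fold it did not remain either. Among all 37 windows of the 10 genes it was again the only window past the rule, beside 1.29% of all windows (0.573% higher). The study's tables list the Notch2 promoter too, from the same data, although its text describes a promoter region of another extent. Of the 56 other pathway genes 1 passed, Poglut1, a glycosyltransferase gene for the receptor, which went from 2.25 to 1.55 and also passed with Input subtracted but not at 2-fold. For comparison, the ligand genes Dll4 and Jag2, outside the 10, had 4.89 and 4.11 in young NSPCs.

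Hes5, Lfng and Notch2 had both marks above 1 in each age, 3 of the 10 genes beside 19.5% of all genes in young and 18.9% in aged NSPCs. Input itself was above 1 at 40.5% of genes in young and 45.8% in aged NSPCs. A level above 1 thus does not by itself show a mark. At Lfng the H3K27me3 value was below its Input of 1.25 and 1.21.

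**Figure D3:**
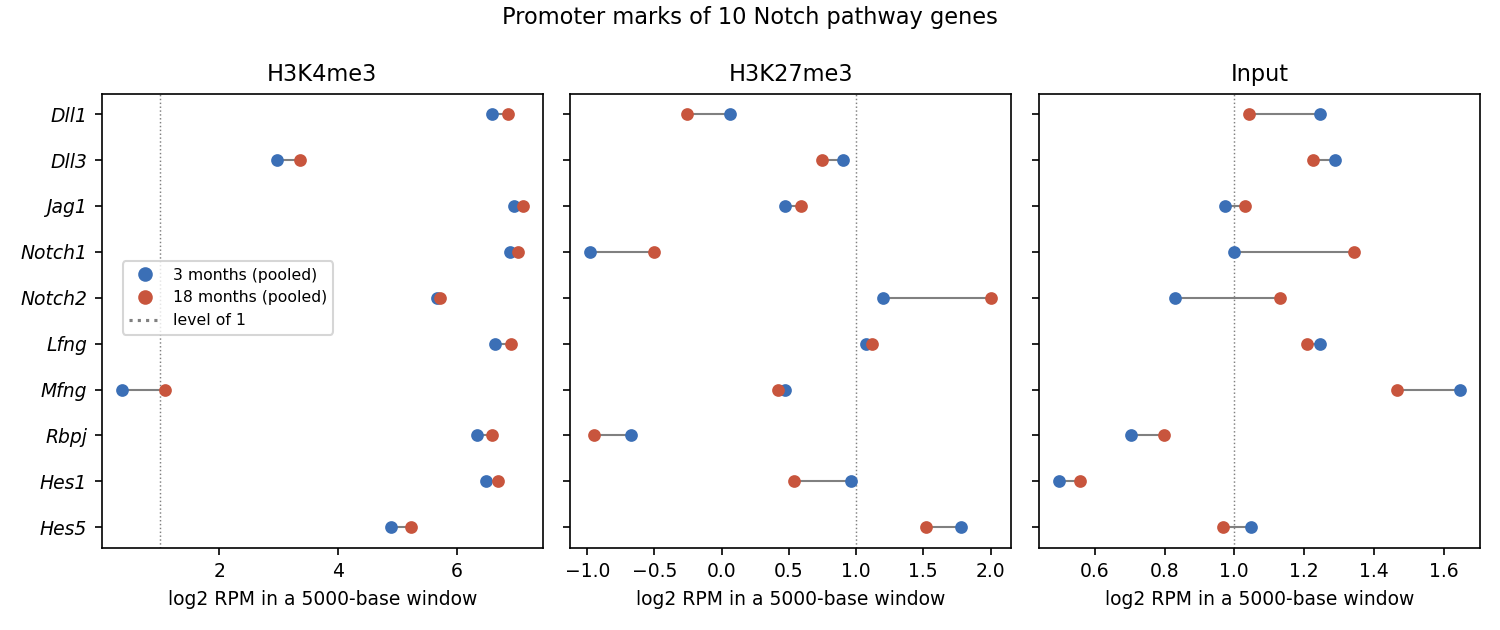
H3K4me3, H3K27me3 and Input (log2 RPM in a 5000-base window around the TSS, 1 pooled value per age) for the 10 genes, with blue for 3 months, red for 18 months and a dotted line at a level of 1. H3K4me3 lies at 4.89 or more for 8 genes and at 0.36 and 1.08 for Mfng, and the largest H3K27me3 step is that of Notch2 from 1.20 to 2.01.

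DNA methylation was read from oxBS libraries, which count 5mC alone, and BS libraries, which count 5mC and 5hmC together. The oxBS libraries held 13616283 to 21389132 calls and the BS libraries 23121086 to 30400033, so that calls were summed per region. In the oxBS promoter windows, pooled over the 6 libraries, methylation ran from 2.33% at Hes1 through Rbpj (5.58%), Jag1 (5.97%), Dll1 (6.70%), Notch1 (7.59%), Lfng (16.3%), Notch2 (17.6%), Hes5 (20.6%) and Dll3 (31.4%) to 64.1% at Mfng. The genes with the lowest H3K4me3, Dll3 and Mfng, therefore had the highest promoter methylation.

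Within 500 bases of the TSS, at most 2.44% of oxBS calls were methylated at 8 of the 10 genes in either age. At Dll1 the counts were 0 of 180 calls in young and 0 of 195 in aged NSPCs, which allow shares of up to 1.67% and 1.54%. At Rbpj they were 0 of 323 and 0 of 262, allowing up to 0.929% and 1.15%. Hes5 had 0 of 248 and 1 of 221, Lfng 0 of 295 and 1 of 245, and Jag1 0 of 259 and 2 of 213. Dll3 was at 8.70% of 92 and 9.09% of 99 calls. Mfng was at 40.8% of 71 and 36.0% of 75 calls, and all methylated calls lay downstream of the TSS. The 500 bases upstream held 0 methylated calls of 20 in young and of 25 in aged NSPCs, too few to exclude some methylation there. These limits cover counting error only.

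**Figure D4:**
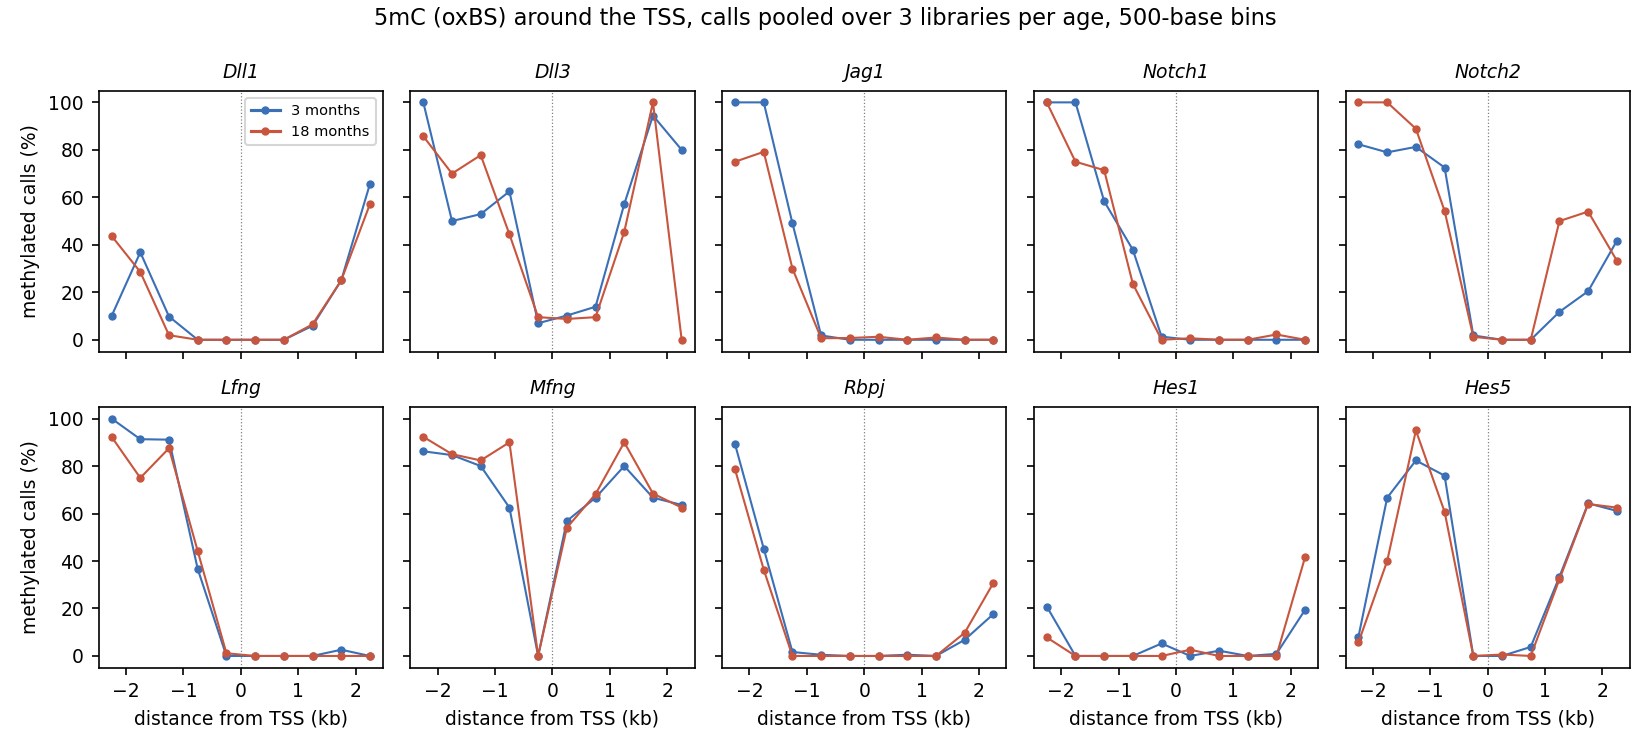
Share of methylated oxBS calls (%) against distance from the TSS (kb) in 500-base bins, pooled over the 3 young (blue) and the 3 aged (red) libraries. A dip towards 0% around the TSS is seen at 8 genes, narrow at Hes5 and wide at Hes1, while Dll3 reaches 7.0% at lowest in young NSPCs and Mfng dips in 1 bin only. The outer bins rest on few calls, down to 1 at Notch1.

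No region of the 10 genes passed between ages (quasi-binomial model over replicates, adjusted p under 0.05 and 10 percentage points). Over all regions, 2 of 23762 oxBS promoter windows passed (0.00842%) and 0.0% of gene bodies and CpG islands did, and in BS 0.0% of all 3 kinds did. Without adjustment, 5.31% of oxBS promoter windows, 4.9% of oxBS gene bodies and 4.37% of oxBS islands were at p under 0.05, and in BS 4.87%, 4.75% and 5.33%. In the promoter windows the oxBS means in young and aged NSPCs were 6.59% ± 1.97 and 6.83% ± 4.19 at Dll1, 28.4% ± 1.26 and 34.1% ± 2.81 at Dll3 and 63.6% ± 2.04 and 64.8% ± 5.38 at Mfng (SD, n = 3). The other 7 differed by -4.14 (Hes5) to 4.48 (Notch2) percentage points on pooled calls. The Mfng BS value was 54.7% ± 4.31 in young and 63.6% ± 8.84 in aged NSPCs, with an unadjusted p of 0.096. That of Dll3 was 25.9% ± 6.13 and 34.7% ± 11.6 (unadjusted p 0.189), and the other 8 differed by -3.29 (Hes5) to 3.78 (Lfng) points in BS. Mfng methylation is named in the study's tables.

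In the gene bodies, the largest oxBS difference was that of Dll3, 9.26 percentage points higher in aged NSPCs on pooled calls (unadjusted p 0.042). The Dll3 body was at 34.2%, 24.8% and 35.9% in young replicates and 42.7%, 36.4% and 40.9% in aged ones. Young replicate 2, the lowest, held the most calls (391), so it weighs most in the pooled value. In BS the Dll3 body was at 32.2% in young and 33.3% in aged NSPCs on pooled calls, 1.07 points higher (unadjusted p 0.776). Notch2 was at 71.7%, 67.6% and 69.9% in young replicates and 74.0%, 71.4% and 76.4% in aged ones, 4.08 points higher on pooled calls (unadjusted p 0.017), and in BS 2.11 points higher (unadjusted p 0.110). The Notch2 body held 1264 to 2058 calls per oxBS library, and its young range of 67.6 to 71.7% overlapped with the aged range of 71.4 to 76.4%. These were 2 of the 10 oxBS gene bodies at an unadjusted p under 0.05, beside 4.9% of all, and the adjusted p of both was 1.00. The other 8 bodies differed by -2.27 (Lfng) to 2.44 (Jag1) points in oxBS and by -4.38 (Dll1) to 4.64 (Lfng) points in BS.

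CpG islands were called here from the genome sequence in windows of 200 bases. The minimum was 50% for G and C together. For CpG sites it was 0.6 of the number that the base content predicts. This gave 180727 islands in the genome, and whether they match the islands used by the study was not tested. Of the 88 CpG islands in and around the 10 genes, 17 had enough oxBS calls and 27 enough BS calls. In oxBS 12 were under 5% in both ages and 2 were above 60%, and in BS 15 and 7 were. The 2 above 60% in oxBS lay at chr2:26467625-26467986 in Notch1 (79.9% ± 9.09 in young, 82.6% ± 7.98 in aged) and at chr3:98145992-98146677 in Notch2 (83.7% ± 3.95 and 81.2% ± 11.1). The Hes1 island at chr16:30066714-30067550 had unadjusted p-values of 0.043 in oxBS and 0.006 in BS, with opposite signs, from 3.21% to 0% in oxBS and from 0% to 3.23% in BS. The Notch2 island at chr3:98111301-98111679 went from 97.7% ± 3.98 to 88.3% ± 10.2 in BS (unadjusted p 0.027).

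The BS minus oxBS difference of same-numbered libraries, an estimate of 5hmC, was further than 1 SD from 0 in 8 of the 20 promoters and gene bodies in young NSPCs (7 above and 1 below 0) and in 4 in aged NSPCs (3 above and 1 below). The values below 0, which a share of 5hmC cannot take, were -8.89 ± 2.64 percentage points at the Mfng promoter in young and -5.97 ± 1.87 in the Dll3 body in aged NSPCs. In the Rbpj gene body it was above 0 in 6 of 6 replicates, 3.18 ± 0.20 percentage points in young and 1.53 ± 1.22 in aged NSPCs (SD, n = 3). In the Notch2 body it was above 0 in 5 of 6, 2.87 ± 0.26 and 0.62 ± 1.04. No count past 1 SD was made over all promoters and gene bodies, so the counts given here have no background. The Hes1 and Hes5 bodies lie within their promoter windows, so the 20 regions are not all separate. Over whole libraries, 71.5 to 72.9% of BS calls and 70.5 to 71.9% of oxBS calls were methylated.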

How the data were processed

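RNA, BS, oxBS, H3K4me3, H3K27me3 and Input libraries were grouped by the submitters' labels. The authors aligned the reads to GRCm38, and the submitters' processing notes name STAR 2.3.0, Bowtie2 2.2.5, Bismark 0.12.5 and Trim Galore 0.4 and 0.3.7 without a role. They deposited RNA and ChIP values as log2 RPM per gene or window, pooled over replicates for ChIP, and methylation as counts of methylated and unmethylated calls per position, beside the percentage of methylated calls, which was not used here. Each RNA library's whole reads were recovered from the steps of the values (100.0% whole within 0.02 of a read). After removal of genes whose mean log2 RPM was under -2, the rest were tested with limma 3.58.1 (R 4.3.3). edgeR 4.0.16 and DESeq2 1.42.0 on recovered reads were alternatives. Methylation was tested per region with at least 10 calls in every library by a quasi-binomial model with moderated dispersion. ChIP windows were compared by fold. Adjustment was by Benjamini-Hochberg over all features tested.

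The replicate numbers were taken from the labels. Deviations from the age means correlated between same-numbered RNA libraries (0.73, 0.20 and 0.83 over 13280 genes). Between libraries of other numbers the values ran from -0.76 to 0.02. The numbers were therefore taken to pair the RNA libraries, with the least support for replicate 2. This was read from the same RNA values that were tested. The scripts were tested on simulated data. For age in RNA, limma recovered 0.5% of genes changed 1.35-fold and 90.5% of those changed 2-fold. With replicate effects (SD 0.3), it recovered 0% of 2-fold changes without the block and 89.5% with it. Of 1.35-fold changes it then recovered 0% without the block and 0% with it. Methylation changes of 20 percentage points were recovered in 74% of promoter windows, 92.5% of gene bodies and 75% of islands. With a correlation of 0.02 simulated, these shares were 12%, 15.5% and 57%. So a gene or region that did not pass may still differ.

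The 10 genes and all lists were chosen with earlier results of these data known. Named were all 10 genes, small methylation differences being given as ranges, and, of the other listed pathway genes, those past the threshold between ages in RNA and the 5 with the largest absolute difference. Others, named for the strain comparison or for ChIP, were chosen after their values were seen. One of the lists is not reported here on its own. Marker genes were summed per library, and the mapping of transcripts to the genome used minimap2 2.31-r1302. Counting intervals and limits cover counting error only, with a limit of 3 calls for a count of 0.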

Additional observations from a re-analysis of the deposited data

Results flagged for a closer look

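The age difference of Hes5 was 1.53 larger on the log2 scale in C57BL/10 than in C57BL/6JBabr, and the limma interaction test gave an adjusted p of 1.00 without and 0.000553 with the replicate block. Hes5 went from 3.76 to 5.32 log2 RPM between the single young and aged C57BL/10 libraries, while the 3 C57BL/6JBabr pairs differed by 0.12, 0.03 and -0.07. With 1 C57BL/10 library per age, its spread is assumed to be that of C57BL/6JBabr, and the fit with the block also assumes that the 2 C57BL/10 libraries are a matched pair, which no label or value here shows. In the 3 young C57BL/6JBabr libraries Hes5 ranged from 6.58 to 7.64 log2 RPM. Strain, facility and library cannot be told apart.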

How the results depend on the processing

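No call was made for any of the 10 genes between ages in RNA or methylation under the alternatives run. For RNA between ages 0 genes passed in limma, 74 with the replicate block, 83 in edgeR with the replicate block, 4 in DESeq2, and 0 in each fit that left out 1 library. Of the other pathway genes 1 passed in edgeR with the replicate block. Leaving out 1 library gave age differences of -0.12 to 0.21 for Notch2, -0.054 to 0.29 for Hes1, -0.35 to 0.36 for Hes5, -0.063 to 0.12 for Rbpj, -0.083 to 0.18 for Lfng and -0.051 to 0.24 for Mfng. Between strains 4405 genes passed, against 2572 in edgeR, 1431 in young libraries alone, 1303 in aged libraries alone and 1425 to 4638 when 1 library was left out, a choice made after seeing the data. Without the young or the aged C57BL/10 library 1425 and 1851 passed. The strain difference of Notch2 turned to -0.017 with quantile normalization, -0.15 in edgeR and -0.019 in young libraries, and ranged from -0.027 to 0.13 with 1 library left out. That of Dll1 turned to -0.015 in edgeR and -0.15 in young libraries (-0.15 to 0.44 with 1 left out), and that of Dll3 to 0.24 with quantile normalization, 0.024 in edgeR, 0.078 with log2(RPM + 1) and 0.95 in aged libraries (-1.03 to 0.95). The interaction gave 36 genes with the replicate block and 1 without. H3K4me3 gave 58 windows, 6 at 2-fold, 636 with Input subtracted, 4117 with no minimum level and 149 over all windows; the share of higher calls was 27.6%, 41.1% with quantile normalization and 89.3% with Input subtracted. H3K27me3 gave 416, 43 at 2-fold, 4121 with no minimum level and 941 over all windows. A chi-squared test on pooled calls, which ignores the spread between replicates, called 797, 534 and 39 oxBS promoter windows, gene bodies and islands, and 636, 409 and 70 in BS. A minimum of 5 calls gave 1 oxBS promoter window, 1 oxBS island, 1 BS gene body and 2 BS islands, and a minimum of 20 gave 0 oxBS promoter windows. The replicate block gave 1 oxBS promoter window, 1 oxBS island and 1 BS promoter window. Same-number correlations of the methylation libraries were under 0.1. With so few calls per position, whether the numbers paired these libraries could not be told. Leaving out 1 library gave 0 to 4 oxBS promoter windows, 0 oxBS gene bodies, 0 to 4 oxBS islands, 0 to 1 BS promoter windows, 0 to 2 BS gene bodies and 0 to 2 BS islands. The cause of these changes was not tested. Depth limits Dll3, Mfng, Jag2 and Dlk1 in RNA and single CpG sites in methylation.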
